A study of Mus musculus with 359 samples.

Results

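A set of 39 genes of fatty acid oxidation and of the response to the nuclear receptor PPAR-alpha was followed in liver and lung of mice given 4-methylimidazole (4-MEI), a small nitrogen heterocycle that forms when sugars are heated with ammonia. The genes were listed by symbol, with no threshold on a measured value, and all 39 were rows of the 6 count tables, which each hold 24421 genes. They were read in 5 groups by step: 4 genes of the receptor and its secreted signals, 4 microsomal genes, 10 peroxisomal genes, 15 mitochondrial genes and 6 genes of uptake, storage and fuel switch.

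The mice were male and female B6C3F1, the hybrid of the C57BL/6 and C3H strains that is widely used in carcinogen bioassays, and the labels name no genetic change in any group and no age. At day 2 they had received 0, 50, 100, 200 or 300 mg/kg-d of 4-MEI by gavage, and at days 5 and 28 they had received 0, 150, 300, 1250 or 2500 ppm in feed, with the 0 groups as vehicle. Each combination was sampled in 6 libraries from separately numbered animals, except the lungs of females fed 2500 ppm for 5 days, with 5. The replicate numbers used here are those animal numbers, and as the labels say nothing more of how the animals were kept, the p-values measure the spread between these samples. Because route and day changed together, gavage and feed cannot be told apart from 2 and 5 or 28 days.

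PPAR-alpha is a transcription factor that fatty acids activate, and in rodent liver it raises the genes that move fatty acids into mitochondria and peroxisomes and burn them there. Mitochondria carry most of the chain shortening, peroxisomes take the longest chains and dicarboxylic acids, and CYP4A enzymes of the endoplasmic reticulum start omega-oxidation at the far end of the chain. Fasting and the fibrate drugs raise these genes in mouse liver, and synthetic activators make mouse hepatocytes multiply their peroxisomes.

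Libraries held 7253910 to 22527309 counts. The tissue labels matched the markers: the summed hepatocyte markers ran from 154741 to 210646 CPM (the usual unit for a count relative to its library total, here scaled with the TMM factors of edgeR) in liver of vehicle females at day 2, and the Y-linked genes matched the sex of the title in 359 of 359 libraries. In liver of the vehicle males at day 2, 4 of 6 libraries (replicates 5, 6, 7 and 8) held Xist, the RNA of the inactive X chromosome of females, at 1.82, 12.3, 4.19 and 6.10 CPM. In lung of vehicle females at day 2, replicate 12 held a hepatocyte marker sum of 363 CPM. In lung of 300 mg/kg-d females replicate 78 held 0.631 CPM of Xist, below every other female library, and replicate 75 held muscle markers. Among the 200 mg/kg-d females replicate 64 stood apart in both tissues, and in lung of 300 mg/kg-d males replicate 66 did. Their values are given beside the results that they touch. In a whole tissue, fewer cells of a type and less RNA per cell cannot be told apart.

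Liver held 38 of the 39 genes above the filter on low counts, all but Cpt1b, the muscle form of carnitine palmitoyltransferase. Lung held 31 at day 2 and 32 at days 5 and 28. The genes below the filter in lung at day 2 were Creb3l3, Fgf21, Cyp4a10, Cyp4a14, Cyp4a31, Acot3, Acot4 and Cpt1b, so that the microsomal step was read there from Aldh3a2 alone. Averaged over the vehicle groups of both sexes and all 3 days, Cyp4a14 stood at 570 CPM in liver and 0.0779 in lung, and Cyp4a10 at 528 and 0.112. Fabp1, the liver fatty acid carrier, stood at 5522 and 20.2 CPM, and Ppara itself at 362 and 11.9. Cd36, a fatty acid translocase of capillaries, fat and muscle, went the other way, with 45.4 CPM in liver and 1763 in lung, as did Pdk4 with 5.77 and 19.2. Per kilobase of transcript, the highest levels of the set in liver of vehicle females at day 2 were those of Fabp1 (6364 CPM per kb), Acaa2 (567.7) and Cyp4a14 (490), and in lung those of Cd36 (531), Ech1 (77.1) and Plin2 (72.01).

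**Figure D1:**
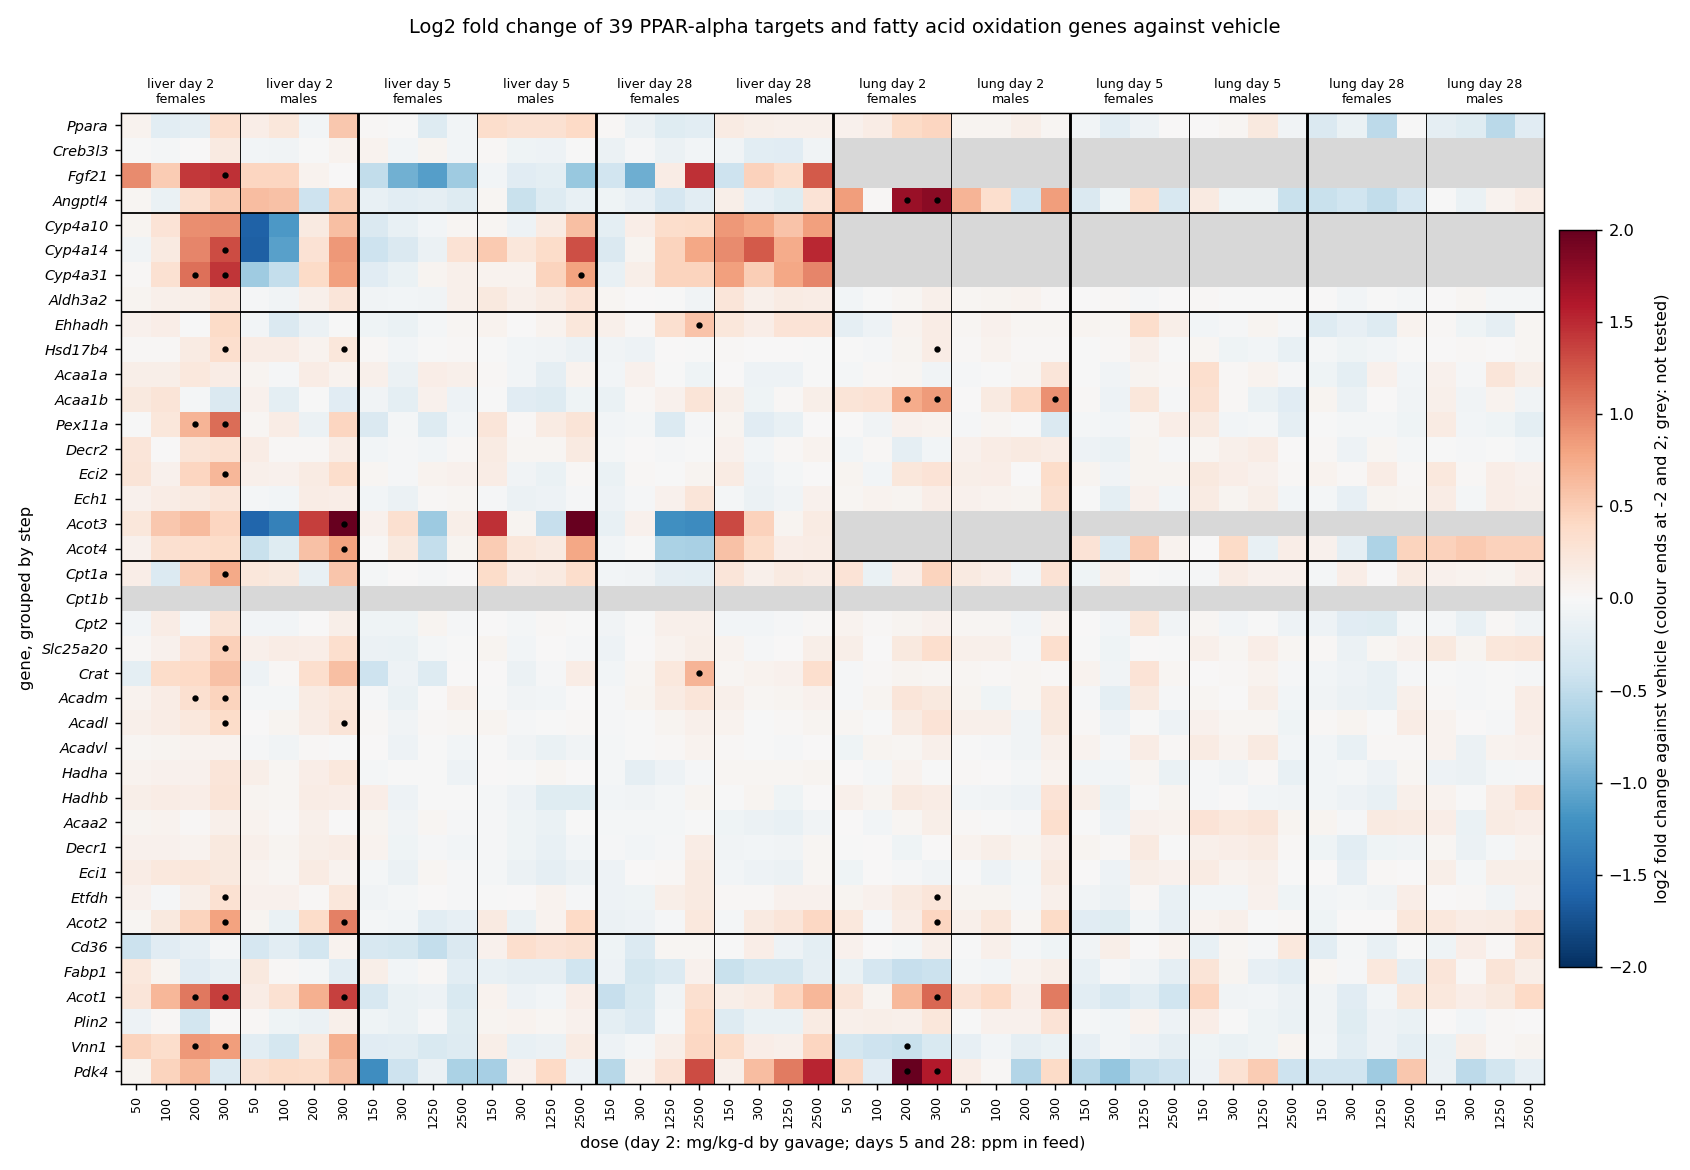
Log2 fold change of each of the 39 genes (rows, grouped by step) against its own vehicle group at each dose (columns), from red (higher) to blue (lower). Black dots mark adjusted p under 0.05 with edgeR and grey marks genes below the filter; most dots lie in liver and lung of females at day 2.

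Across the 48 comparisons of a dose with its vehicle group, at least 1 gene of the set passed an adjusted p of 0.05 (edgeR's quasi-likelihood test, Benjamini-Hochberg adjustment over all genes tested) in 8. In the other 40, none of the set passed, and over those 40 comparisons 0.137% of all gene tests did. At an unadjusted p under 0.05, between 0 and 7 members and between 215 and 2366 of all genes passed in each of these 40. DESeq2 called 1 member in 1 of them. Doses of 1 sex, tissue and day share their vehicle group, so their values are set side by side and not counted as separate evidence.

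In liver of females after 2 days at 300 mg/kg-d, 14 of 38 genes rose and 0 fell. Over all genes tested, 15.3% rose and 14.7% fell there. The median log2 fold change of the set was 0.33, beside -0.02 over all genes, and 34 of the 38 values were above 0, where 47.7% of all genes were. The 14 genes came from each step: Fgf21; Cyp4a31 and Cyp4a14; Pex11a, Eci2 and Hsd17b4; Cpt1a, Slc25a20, Acadm, Acadl, Etfdh and Acot2; Acot1 and Vnn1. At 200 mg/kg-d, 5 of 38 rose (10% of all genes rose), namely Cyp4a31, Pex11a, Acadm, Acot1 and Vnn1. At 50 and 100 mg/kg-d none passed. Without replicate 77 of the 300 mg/kg-d females 9 of the 14 passed, all but Fgf21, Cyp4a14, Etfdh, Acot2 and Vnn1. Without replicate 9 of the vehicle females 19 members passed at 300 mg/kg-d and 8 at 200 mg/kg-d.

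Of the microsomal genes, Cyp4a31, a member of the fatty acid omega-hydroxylase family, ran from 14.7 CPM through a median of 22.3 to 39.7 in the vehicle females, and from 43.4 through 53.4 to 92.96 at 300 mg/kg-d. All 6 treated livers lay above all 6 vehicle livers. The rise was 1.42 log2 (2.68-fold, SE 0.29, adjusted p 0.000213), after 1.11 at 200 and 0.30 at 100 mg/kg-d. Cyp4a14, a widely used marker of PPAR-alpha activity in mouse liver, rose by 1.31 (SE 0.50, adjusted p 0.0398). Its libraries lay at 579, 1252 and 2001 CPM (lowest, median, highest) without 4-MEI and at 1684, 2615 and 5408 with it, so the groups overlapped. Cyp4a10 changed by 0.95 (SE 0.39, adjusted p 0.0581), which did not pass, and Aldh3a2, which clears the fatty aldehydes, by 0.25. The 3 Cyp4a genes lie side by side (chr4:115486200-115579015, GRCm38). Cyp4a10 and Cyp4a31 share 30.5% and 21.8% of their 50-base stretches with other genes, so reads could be split between copies and these 2 values are uncertain for the single gene.

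The 2 peroxisomal genes with the smallest adjusted p were Pex11a and Hsd17b4. Pex11a, which encodes a membrane protein that elongates peroxisomes before they divide, ran at 21.4, 27.5 and 40.4 CPM (lowest, median, highest) in vehicle females and at 41.9, 52.7 and 86.6 at 300 mg/kg-d. The groups did not overlap. It rose by 1.11 log2 (2.16-fold, SE 0.20, adjusted p 3.45e-05), the smallest adjusted p of the set, and by 0.68 at 200 mg/kg-d. Hsd17b4, the peroxisomal multifunctional enzyme for branched and very long chains, rose by 0.33 (SE 0.08, adjusted p 0.000961), from a median of 425 CPM to 515. Eci2, an isomerase that handles double bonds of unsaturated chains, rose by 0.66 (SE 0.16, adjusted p 0.00126). The other 7 peroxisomal genes did not pass. Ehhadh, the classic bifunctional enzyme of the peroxisome and a marker of fibrate treatment, stood at 0.38 (SE 0.18, adjusted p 0.0984), and the thiolases Acaa1a and Acaa1b, which cut off the last acetyl unit, at 0.14 and -0.28. Acaa1b was 1 of the 4 members with a value below 0. The others were Cd36 at -0.05, Fabp1 at -0.15 and Pdk4 at -0.27.

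Of 14 mitochondrial genes tested in these livers, 6 rose, and all 14 had values above 0. Cpt1a, which loads long chains onto carnitine and is the gate of mitochondrial oxidation, ran at 323, 448 and 570 CPM in vehicle and at 627, 779 and 1010 at 300 mg/kg-d. No treated liver fell within the vehicle range. Cpt1a rose by 0.76 (SE 0.25, adjusted p 0.0162). Slc25a20, the carrier that brings the loaded chains across the inner membrane, rose by 0.48 (SE 0.13, adjusted p 0.00387). Of the dehydrogenases of the first oxidation step, Acadm (medium chain) rose by 0.44 (SE 0.10, adjusted p 0.000569) and Acadl (long chain) by 0.37 (SE 0.09, adjusted p 0.00136), while Acadvl (very long chain) stood at 0.07 and did not pass. Acadm ran at 182, 191 and 258 CPM in vehicle and at 238, 268 and 338 at 300 mg/kg-d, with some overlap. Etfdh, which hands the electrons to the respiratory chain, rose by 0.31 (SE 0.10, adjusted p 0.0145). Hadha and Hadhb, the subunits of the trifunctional protein, stood at 0.24 and 0.25 and did not pass (adjusted p 0.0599 and 0.0671). Reads of Hadhb may be shared with Gm13910, with which it has most of the 62.4% of its 50-base stretches found in other genes.

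The acyl-CoA thioesterases, which split CoA from fatty acids, and Vnn1, a pantetheinase, supplied the remaining calls. Acot1, the cytosolic thioesterase, ran at 13.1, 36.8 and 67.9 CPM in vehicle females and at 43.3, 86.8 and 201 at 300 mg/kg-d. It rose by 1.38 (2.61-fold, SE 0.33, adjusted p 0.0012), with overlap between the groups and 1 library, replicate 77, far above the others. Acot2, its mitochondrial relative, rose by 0.81 (SE 0.30, adjusted p 0.0354), with the same library highest at 33.7 CPM against a vehicle range of 3.99 to 14.7. Without replicate 77 Acot1 was still past the threshold (1.05, adjusted p 0.0135) and Acot2 was not (0.40, adjusted p 0.315). With the level of the clock gene Arntl as a term in the model, Acot2 in these females was the only named call lost in liver. The part of the clock genes in liver was not tested. Vnn1 rose by 0.84 (SE 0.27, adjusted p 0.0149), from a median of 35.7 to 65.5 CPM. Plin2, which coats lipid droplets, stood at 0.00 (SE 0.26).

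Among the receptor and its secreted signals only Fgf21 passed, a hormone that the liver releases in fasting. Its level was low, at 0.583, 1.03 and 2.17 CPM in vehicle females and 1.24, 2.71 and 5.34 at 300 mg/kg-d, and the rise was 1.47 (SE 0.53, adjusted p 0.0304). Ppara, the receptor, stood at 0.34 (SE 0.20, adjusted p 0.204), with a vehicle range of 311 to 455 CPM and a treated range of 327 to 542. Angptl4, an inhibitor of lipoprotein lipase, stood at 0.50 (SE 0.31, adjusted p 0.214), and Creb3l3, a partner of PPAR-alpha on the Fgf21 gene, at 0.17.

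A straight trend over the 5 doses passed for 16 of 38 genes in these females, all upward (19.3% of all genes tested rose). Per dose step the steepest slopes were 0.39 log2 for Cyp4a31 (SE 0.06, adjusted p 6.1e-06), 0.37 for Cyp4a14, 0.36 for Acot1 and 0.34 for Fgf21. Pex11a followed with 0.29 (SE 0.04, adjusted p 1.51e-06). Cyp4a10 and Crat, a carnitine acetyltransferase, passed the trend without passing at 300 mg/kg-d, with slopes of 0.28 and 0.18.

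**Figure D2:**
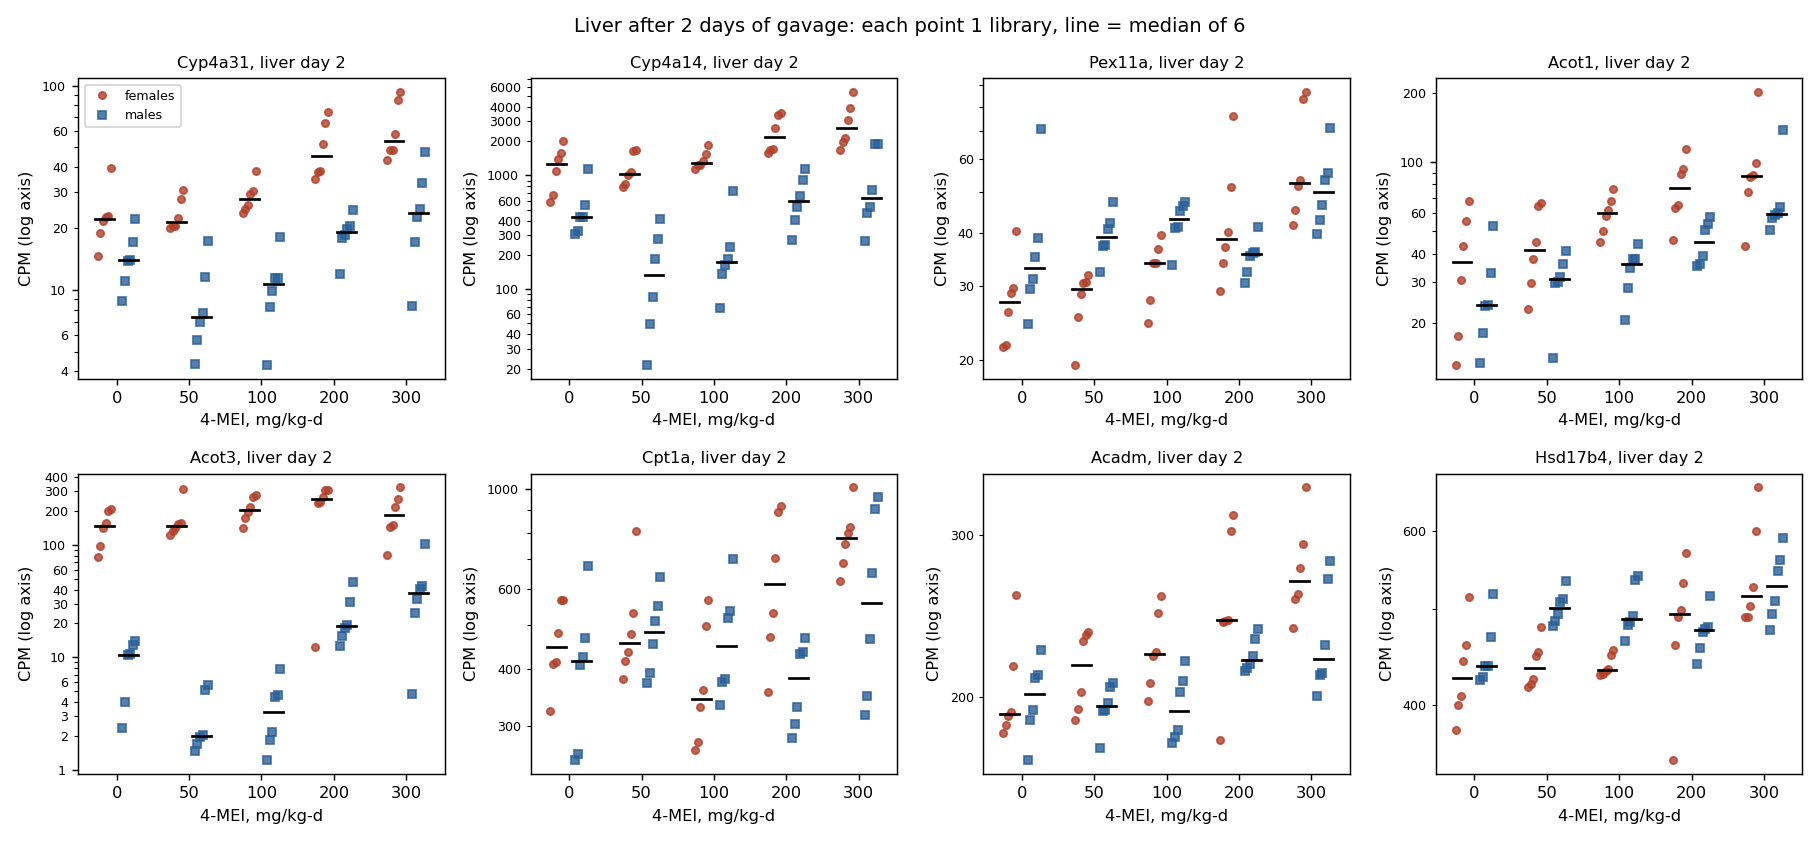
CPM on a log axis of 8 genes in liver at day 2 by dose in mg/kg-d, females as circles and males as squares, each point 1 library and each line the median of 6. In females Cyp4a31, Pex11a and Cpt1a at 300 mg/kg-d lie wholly above vehicle, and in males Cyp4a14 and Acot3 have lower medians at 50 and 100 mg/kg-d than in vehicle.

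Markers of the feeding state and of other cell types were read beside these values. Of the 7 genes listed for the fasting state, 5 rose in liver of 200 mg/kg-d females (10% of all genes did): Igfbp1 by 5.43, Gadd45b by 2.76, Lpin1 by 2.24, Ppargc1a by 1.35 and G6pc by 1.25. At 300 mg/kg-d none of the 7 passed, all 7 values were above 0, and their summed level ran at 842, 1525 and 4325 CPM in vehicle and 1687, 3209 and 4951 at 300 mg/kg-d. The trend over dose passed upward for 3 of the 7, where 19.3% of all genes rose. Of the lists of liver cell types at 300 mg/kg-d, 4 of 6 endothelial cell markers rose (15.3% of all genes did), 3 of 7 markers of Kupffer cells and macrophages and 2 of 6 of stellate cells and fibroblasts fell (14.7%), and of 8 hepatocyte markers 3 rose and 1 fell. The part of these lists in the result was not tested. At 200 mg/kg-d replicate 64 had a fasting state sum of 15720 CPM and low Fabp1 (168 CPM), Plin2 (30.5) and Acot3 (12.3). Without it 8 members passed at 200 mg/kg-d instead of 5, and Acot1 there, at 1.10, no longer did. The 5 rises of fasting state genes at 200 mg/kg-d were not refitted without replicate 64, so they may rest on that liver.

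In liver of males at 300 mg/kg-d, 6 of 38 genes rose and 0 fell. Over all genes tested 8.64% rose and 6.47% fell, the median of the set was 0.23 beside 0.00 over all genes, and 34 of 38 values were above 0. No member passed at 50, 100 or 200 mg/kg-d. Acyl-CoA thioesterases made up 4 of the 6. Acot3, a peroxisomal thioesterase that is low in male liver, ran at 2.32, 10.5 and 13.9 CPM in vehicle and at 4.66, 36.9 and 102.01 at 300 mg/kg-d. A single treated liver lay inside the vehicle range and 5 lay above it. Acot3 rose by 2.18 log2 (4.54-fold, SE 0.51, adjusted p 0.00288). Acot1 rose by 1.37 (SE 0.33, adjusted p 0.00386), from 13.4, 23.9 and 52.7 CPM to 50.8, 59.4 and 137.9. Acot2 rose by 1.00 (SE 0.33, adjusted p 0.0333) and Acot4, which acts on dicarboxylic chains in peroxisomes, by 0.81 (SE 0.23, adjusted p 0.0141). The other 2 were Hsd17b4 at 0.23 (SE 0.08, adjusted p 0.038) and Acadl at 0.25 (SE 0.09, adjusted p 0.0423). Ppara stood at 0.54 (SE 0.20, adjusted p 0.0574) and Pex11a at 0.43 (adjusted p 0.13).

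These male calls rest on a vehicle group of which 4 of 6 libraries held Xist. With those 4 left out, 2 vehicle males remained and 2 members passed, Acot1 and Pex11a. Acot3 was again 2.18 but with an adjusted p of 0.122, and Acot4, Acot2, Hsd17b4 and Acadl did not pass either. Without replicate 67 of the 300 mg/kg-d males, Acadl did not pass. Without replicate 66 of the 300 mg/kg-d males 2 members passed, Acot3 (1.68, adjusted p 0.0224) and Acot1 (1.07, adjusted p 0.0275), while Acot2 stood at 0.64 and Acot4 at 0.68.

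In males the medians of the Cyp4a genes and Acot3 did not follow the order of the doses. Cyp4a14 had a median of 431 CPM in vehicle, 134.3 at 50, 173 at 100, 590 at 200 and 638 at 300 mg/kg-d. The medians of Cyp4a10 were 505, 147.003, 191, 573 and 615 CPM, and those of Acot3 10.5, 1.99, 3.28, 18.8 and 36.9. None of these differences at 50 or 100 mg/kg-d passed: Cyp4a10 stood at -1.62 (adjusted p 0.0913) and -1.15, Cyp4a14 at -1.63 and -1.08, and Acot3 at -1.58 and -1.35. DESeq2 called 1 member at 50 mg/kg-d. The vehicle group here is the one in which 4 of 6 livers held Xist. At day 2 Acot3 was higher in vehicle livers of females than of males (4.00). The differences of Cyp4a14 (1.20) and Cyp4a10 (0.71) did not pass. The 4 livers with Xist held 303 to 554 CPM of Cyp4a14 and the other 2, replicates 1 and 3, held 1146 and 431. Against those 2 alone, Cyp4a14 stood at -2.19 and -1.64 at 50 and 100 mg/kg-d, Cyp4a10 at -1.94 and -1.47 and Acot3 at -1.59 and -1.36, and none passed. The part of the livers with Xist in these differences was not tested. A straight trend over the doses passed for 9 genes, all upward (5.51% of all genes tested rose), among them Acot3 with a slope of 0.73 per dose step (SE 0.12, adjusted p 0.000247), Cyp4a14 with 0.37, Cyp4a10 with 0.30 and Crat with 0.16. Since the low doses lay below vehicle, such a slope is not a rise at each step.

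The sexes have separate vehicle groups at 300 mg/kg-d. Of the genes that rose in liver, 4 did so in both, Acot1, Acot2, Hsd17b4 and Acadl, which is 28.6% of the 14 in females and 66.7% of the 6 in males. Of all genes that rose, 45.1% of those in females and 79.8% of those in males rose in both, so the shared part of the set was no larger than that of all genes. The values had the same sign for 34 of 38 members and for 79.5% of all genes. No member passed the test of the difference between the sexes in either tissue at any day, where 0.00706% of all gene tests did, and DESeq2 called none. In liver at day 2, 2 of 38 members had an unadjusted p under 0.05 in that test, as did 581 of 12627 genes. Acot3 differed by -1.76 (females minus males, SE 0.68) and Pex11a by 0.69 (SE 0.28), each with an adjusted p near 1 (0.996 and 1.00).

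The 4 thioesterase genes lie side by side within 72.5 kb (chr12:83987861-84060402, GRCm38), in the order Acot2, Acot1, Acot4 and Acot3. Acot1, Acot2 and Acot3 share 33.6%, 27.7% and 19.5% of their 50-base stretches with other genes, so that counts may be split among them. The sequence before the start site is printed for Acot4 and Acot1 of these genes and for Pex11a. Against vehicle at day 2, Acot1 rose in liver of both sexes and Acot4 in that of males alone. Acot2 and Acot3 also rose there, Acot2 in both sexes and Acot3 in males, and their sequences are not printed. A direct repeat of the hexamer AGGTCA with 1 base of any kind between its 2 copies is the element that PPAR-alpha and its partner RXR are known to bind. It was searched on both strands in the window from 250 bases before to 50 after each start site of RefSeq (GRCm38.p6), allowing 2 mismatches. Such a window held a match in 6 of the 29 members found in the table (20.7%) and in 1190 of 27025 genes (4.4%), and 10 members were not in the table. Of the 6, Acot4 and Slc25a20 passed in liver and Fabp1, Cd36, Creb3l3 and Plin2 passed in no comparison of a dose with vehicle. The 250 bases before the start follow for Acot4 (chr12:84038129-84038378, plus strand), Acot1 (chr12:84009252-84009501, plus strand) and Pex11a (chr7:79743132-79743381, minus strand), 5' to 3' on the strand of the gene, with the match in capitals; Acot1 and Pex11a hold none.
Acot4: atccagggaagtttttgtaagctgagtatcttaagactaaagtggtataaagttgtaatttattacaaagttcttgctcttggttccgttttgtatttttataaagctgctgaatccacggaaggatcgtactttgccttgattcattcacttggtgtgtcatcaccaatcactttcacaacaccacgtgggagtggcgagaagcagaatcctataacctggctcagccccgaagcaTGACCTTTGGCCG
Acot1: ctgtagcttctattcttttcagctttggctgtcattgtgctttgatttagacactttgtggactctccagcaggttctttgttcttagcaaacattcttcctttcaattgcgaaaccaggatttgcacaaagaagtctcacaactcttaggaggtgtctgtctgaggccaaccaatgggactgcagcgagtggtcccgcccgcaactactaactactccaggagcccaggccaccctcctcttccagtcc
Pex11a: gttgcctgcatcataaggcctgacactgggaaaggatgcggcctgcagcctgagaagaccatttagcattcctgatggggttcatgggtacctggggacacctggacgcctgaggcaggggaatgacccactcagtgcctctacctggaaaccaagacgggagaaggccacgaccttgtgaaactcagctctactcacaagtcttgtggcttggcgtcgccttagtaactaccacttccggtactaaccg
The matches of the other members with their neighbouring bases, on the strand of the gene, lie before the start for Fabp1 (chr6:71199797-71199839), Cd36 (chr5:17835932-17835974), Creb3l3 (chr10:81092773-81092815) and Plin2 (chr4:86670257-86670299) and just after it for Slc25a20 (chr9:108662142-108662154). They are shown for how near each comes to the repeat, which Fabp1 misses by 1 base and the others by 2.
Fabp1: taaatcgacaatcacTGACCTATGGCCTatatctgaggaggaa
Cd36: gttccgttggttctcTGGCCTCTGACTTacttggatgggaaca
Creb3l3: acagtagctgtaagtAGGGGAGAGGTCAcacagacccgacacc
Plin2: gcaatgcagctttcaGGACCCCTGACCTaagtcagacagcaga
Slc25a20: AGGTGAAAGGTCG
A match describes letters in the window and not binding.

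Of the other genes of the pathway, those of fatty acid uptake and lipid droplets rose more often than they fell in liver of females, and those of the peroxisome went both ways. The counts stand beside 15.3% of all genes higher and 14.7% lower in females and 8.64% and 6.47% in males. In liver of females at 300 mg/kg-d, 3 of 18 further peroxisomal oxidation genes rose and 3 fell. Acox2, a peroxisomal oxidase of branched chains and bile acid intermediates, rose by 0.47 and Hsdl2 by 0.65, while Nudt7, a peroxisomal CoA hydrolase, fell by 1.10. Of 18 genes of peroxisome biogenesis 1 rose (Pex3, 0.22) and 3 fell, among them Pex11g (-0.40), a relative of Pex11a. Of 17 genes of fatty acid uptake and lipid droplets 8 rose and 1 fell, led by Fitm2 at 0.98, Cidec at 1.78 and Slc27a2 at 0.60. Of 7 other omega-oxidation genes 1 rose, Cyp4a12a (1.20). Of 16 other mitochondrial oxidation genes 2 rose and 1 fell. In males the same lists had 2 higher and 2 lower of 18, 0 and 3 of 18, 1 and 0 of 17, 1 and 1 of 7, and 2 and 0 of 16.

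In lung of females at 300 mg/kg-d, 7 of 31 genes rose and 0 fell (3.64% of all genes rose and 5.09% fell). The median of the set was 0.14, beside 0.00 over all genes, and 25 of 31 values were above 0. The genes with the largest rises were Angptl4, Pdk4, Acot1 and Acaa1b. Angptl4 ran at 16.9, 20.2 and 27.9 CPM in vehicle lungs and at 37.5, 55.4 and 141.2 at 300 mg/kg-d. The groups did not overlap, and the rise was 1.80 log2 (SE 0.46, adjusted p 0.00913). Pdk4, the kinase that shuts off pyruvate dehydrogenase and spares glucose, ran at 9.83, 10.8 and 13.9 CPM in vehicle and at 16.1, 25.9 and 70.2 at 300 mg/kg-d, again with no overlap, and rose by 1.59 (SE 0.47, adjusted p 0.0253). Acot1 rose by 1.15 (SE 0.25, adjusted p 0.00242) from 14.4, 15.6 and 17.2 CPM to 25.5, 32.5 and 45.03. Acaa1b rose by 0.85 (SE 0.21, adjusted p 0.00695) from 10.2, 12.1 and 17.1 CPM to 18.1, 22.5 and 26.96. Each treated lung exceeded each vehicle lung in both genes. Acaa1b shares 35.5% of its 50-base stretches with other genes, its near copy Acaa1a among them. Etfdh, Acot2 and Hsd17b4 rose by 0.25, 0.42 and 0.14. Ppara stood at 0.44 (SE 0.16, adjusted p 0.0658), between 8.46 and 15.4 CPM in vehicle and between 13.1 and 17.7 at 300 mg/kg-d, and passed the trend over dose (slope 0.12, adjusted p 0.0147), as did 9 members in all, each upward (8.09% of all genes rose).

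At 200 mg/kg-d in lung of females 3 members rose, Pdk4 (1.99), Angptl4 (1.72) and Acaa1b (0.74), and 1 fell, Vnn1 (-0.45). Over all genes 3.04% rose and 2.37% fell. The values of Pdk4 and Angptl4 rest on replicate 64, with 153.3 and 184 CPM. Without it none of the 4 passed, with Pdk4 at 1.01 (adjusted p 0.299), Angptl4 at 1.14 (adjusted p 0.261), Acaa1b at 0.76 (adjusted p 0.0761) and Vnn1 at -0.36; the fold of Acaa1b was thus nearly the same without that lung. Vnn1 also did not pass without replicate 12 of the vehicle females.

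Several marker lists also changed in lung of females at 300 mg/kg-d, where 3.64% of all genes rose and 5.09% fell. Of 7 adipocyte markers 1 rose, Lipe. The summed level of 7 markers of the adipocyte, a cell that also expresses Angptl4 and Pdk4, ran at 67.8, 78.5 and 243 CPM in vehicle lungs and at 168, 206 and 275 at 300 mg/kg-d; none of the markers was at 0 in all libraries, and Adipoq ran from 0.198 to 19.7 CPM in vehicle and from 6.72 to 15.4 at 300 mg/kg-d. Of 13 genes of the circadian clock, which follow the hour at which a tissue is taken, 2 rose and 6 fell, with Arntl at 2.43 to 4.53 CPM in vehicle and 6.61 to 24.2 at 300 mg/kg-d. With the level of Arntl as a term in the model, Pdk4 stood at 1.23 (adjusted p 0.236) and Angptl4 at 1.78 (adjusted p 0.0517), and neither passed. Arntl itself did not overlap between vehicle and 300 mg/kg-d, so that fit cannot separate its part from that of the dose. Of 7 skeletal muscle markers 3 rose, Myh1 (5.05), Tnnt3 (2.35) and Mylpf (1.65), as did 3 of 6 macrophage markers, Cd5l (3.12), Vsig4 (2.22) and Timd4 (1.12). Replicate 75 held the highest level of each, with 61.8 CPM of Myh1 where the other 11 lungs held at most 0.622. Muscle also expresses Pdk4, of which replicate 75 held 26.1 CPM. Of 7 markers of T and NK cells 5 fell and of 6 of alveolar type 1 cells 3 fell. All 7 members passed without replicate 75, and all 7 passed without replicate 78. The part of the adipocyte, clock, muscle, macrophage, T and NK cell and alveolar markers in the result was not tested.

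**Figure D3:**
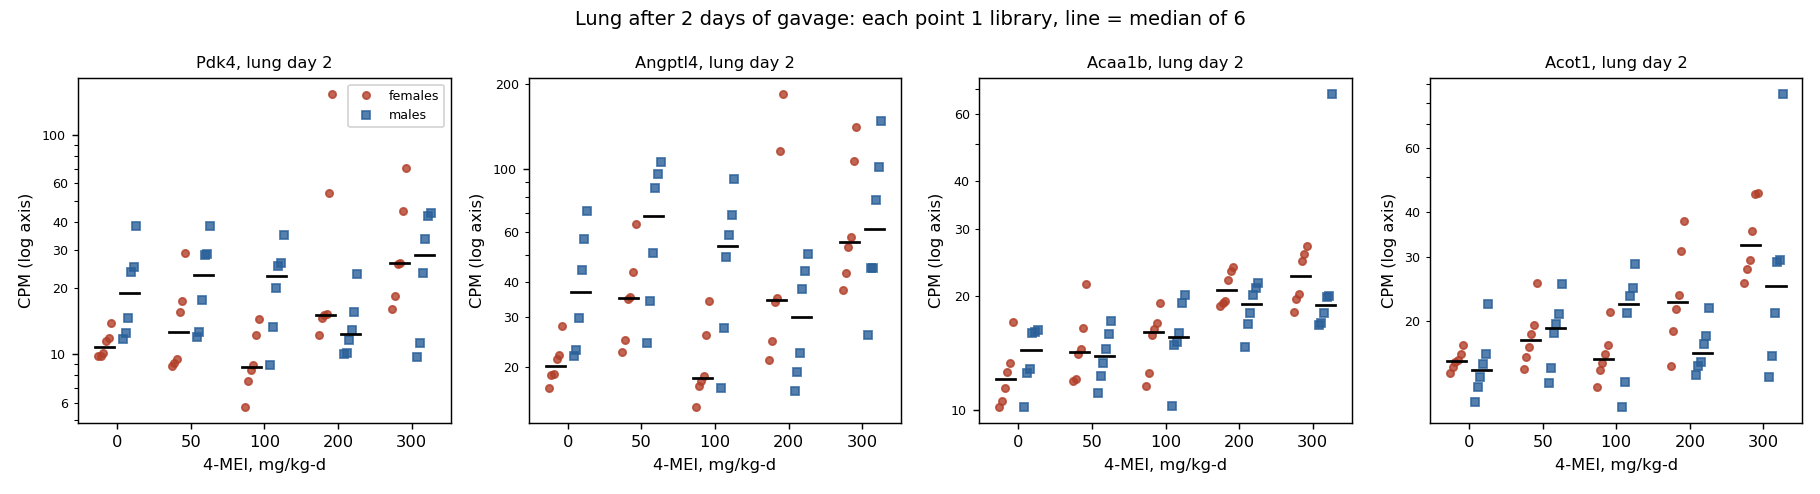
CPM on a log axis of Pdk4, Angptl4, Acaa1b and Acot1 in lung at day 2 by dose in mg/kg-d, females as circles and males as squares, each point 1 library and each line the median of 6. In females all 4 genes lie above vehicle at 300 mg/kg-d, and 1 female at 200 mg/kg-d reaches 153.3 CPM of Pdk4.

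In lung of males at 300 mg/kg-d 1 of 31 genes rose (0.105% of all genes did), Acaa1b, from 10.2, 14.4 and 16.3 CPM to 16.8, 19.0 and 67.7 (0.91 log2, SE 0.21, adjusted p 0.0365). The highest lung, replicate 66, also held 84.5 CPM of Acot1, and its sums of alveolar type 2 cell and club cell markers were 59922 and 115619 CPM. Without it Acaa1b stood at 0.39 (adjusted p 0.183) and no member passed. Acot1 stood at 1.05 (adjusted p 0.0582) with all 6 lungs in. The trend over dose passed for Acaa1b alone (slope 0.22, adjusted p 0.00779), where 0.741% of all genes rose. Pdk4 and Angptl4 ran at medians of 19.1 and 36.96 CPM in vehicle males and 28.4 and 61.6 at 300 mg/kg-d and did not pass. The difference between the sexes for Pdk4 was 1.21 (females minus males, SE 0.65, adjusted p 0.425).

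Liver and lung were compared within females at day 2 by the difference of the 300 mg/kg-d effect. It passed for 5 of 38 members, where 12.9% of 15256 genes did. Among the 38 were Creb3l3, Fgf21, Cyp4a10, Cyp4a14, Cyp4a31, Acot3 and Acot4, which lay below the filter in lung at day 2. They had too few lung counts for a lung effect to be read, so the share in the set is not interpreted. With each animal as a block, over the 8 animals with both tissues, Pex11a and Acaa1b passed again, Vnn1 (0.91, adjusted p 0.111), Decr2 (0.47, adjusted p 0.0823) and Pdk4 (-2.10, adjusted p 0.0817) did not, and Angptl4 (-1.58, adjusted p 0.0462) did. The values that follow are those without the block. The effect on Pex11a was 1.08 log2 larger in liver (SE 0.26, adjusted p 0.00738), on Vnn1 1.19 larger (SE 0.29, adjusted p 0.00777) and on Decr2, a peroxisomal reductase, 0.41 larger (SE 0.12, adjusted p 0.0246). For Acaa1b the difference was -1.08 (SE 0.23, adjusted p 0.00255) and for Pdk4 -1.82 (SE 0.56, adjusted p 0.0343), with the larger effect in lung. Acot1 rose in both tissues. Of the genes called at 300 mg/kg-d in these females, Acot1, Acot2, Etfdh and Hsd17b4 were shared, 28.6% of the 14 in liver and 57.1% of the 7 in lung, beside 9.06% and 31.5% for all genes that rose; some of these livers and lungs are from the same animals. The same difference passed for no member in the other 5 comparisons of liver with lung, where 0.0272% of all gene tests passed; between 1 and 5 members had an unadjusted p under 0.05 there.

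After 5 and 28 days of feed the changes were few. In liver of males fed 2500 ppm for 5 days, Cyp4a31 rose (1 of 38; 0.218% of all genes rose). It ran at 3.90, 6.17 and 8.62 CPM in vehicle and at 7.40, 9.85 and 15.7 at 2500 ppm, a rise of 0.81 log2 (SE 0.19, adjusted p 0.0348), with some overlap. In a fit of these 2 groups alone it did not pass (0.81, adjusted p 0.1895). Its neighbour Cyp4a14 did not pass (1.29, SE 0.33, adjusted p 0.0566), although its 6 treated livers, at 171, 220 and 323 CPM, all lay above the vehicle range of 44.9 to 132.1. Cyp4a10 stood at 0.60 (adjusted p 0.367), with 204 to 273 CPM at 2500 ppm and 95.3 to 222 in vehicle. The trend over dose also passed for Cyp4a31 alone (slope 0.20, adjusted p 0.0128; 0.319% of all genes rose). In females of that day Cyp4a31 stood at 0.11 and Cyp4a14 at 0.29, and no member passed. The difference between the sexes was -0.70 for Cyp4a31 (females minus males, SE 0.26, adjusted p 1.00).

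The labels of day 28 contradict each other: the titles, used here, and the characteristics give different doses for 96 libraries and different sexes for 48, and the Y-linked genes followed the titles. No measurement here checks the dose, so every day 28 value holds for the doses of the titles. Both labels agree on the females at 2500 ppm, while the females that the characteristics call vehicle are those at 300 ppm by their titles.

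In liver of females fed 2500 ppm for 28 days 2 of 38 genes rose (0.403% of all genes did), Ehhadh and Crat. The median of the set was 0.11, beside 0.00 over all genes. An unadjusted p under 0.05 was found for 14 of 38 members and for 1792 of 12904 genes. Ehhadh ran at 380, 429 and 540 CPM in vehicle and at 521, 638 and 778 at 2500 ppm, a rise of 0.56 log2 (1.48-fold, SE 0.11, adjusted p 0.00109). A single treated liver lay inside the vehicle range. Crat, which buffers acetyl groups as acetylcarnitine, ran at 31.2, 37.2 and 41.5 CPM in vehicle and at 44.9, 56.8 and 75.6 at 2500 ppm, with no overlap, and rose by 0.67 (SE 0.17, adjusted p 0.0353). Without replicate 176 of the vehicle females Crat stood at 0.71 with an adjusted p of 0.0519. Against the females that the characteristics call vehicle, Ehhadh rose by 0.54 (adjusted p 0.00214) and Crat by 0.63 (adjusted p 0.0428). The trend over dose passed for 5 genes upward, Ehhadh (slope 0.13, adjusted p 0.000213), Crat (0.16), Acadm (0.07), Ech1 (0.07) and Etfdh (0.06), and for 1 downward, Acot4 (-0.19, adjusted p 0.034), where 1.51% of all genes rose and 2.33% fell. Acot4 ran at 41.7, 77.4 and 141.6 CPM in vehicle and at 32.97, 48.9 and 80.5 at 2500 ppm. Its neighbour Acot3 stood at -1.26 (adjusted p 0.238), with no treated liver above the vehicle mean.

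In liver of males fed 2500 ppm for 28 days no member passed. The smallest adjusted p was that of Cyp4a31 (0.97, SE 0.26, adjusted p 0.202). An unadjusted p under 0.05 was found for 7 of 38 members and for 1081 of 12904 genes. Values above 0 were found for 32 of 38 members, where 45.7% of all genes had them. Ehhadh stood at 0.27 (adjusted p 0.452) there, and its difference between the sexes was 0.29 (females minus males, SE 0.15, adjusted p 0.753). In lung no member passed after 5 or 28 days of feed at any dose. At 2500 ppm the members with an unadjusted p under 0.05 were 4 of 32 in males and 2 in females at day 5, and 5 and 1 at day 28. Of all genes, 1328 and 817 of 15675 had such a p at day 5, and 1171 and 1769 of 15646 at day 28. In the 6 trends over dose in which none passed, 0.287% of all gene tests did. An unadjusted p under 0.05 was found there for 1 to 7 members and for 799 to 2801 of all genes. DESeq2 called 1 member in 1 of these trends. The effect at 2500 ppm did not differ between day 28 and day 5 for any member in either tissue and sex by edgeR's test of the difference (0.00719% of all gene tests passed). The unadjusted p was under 0.05 for 11 members in liver of females and for 2 to 6 in the other 3 comparisons. The number of all genes at that threshold is not given here.

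**Figure D4:**
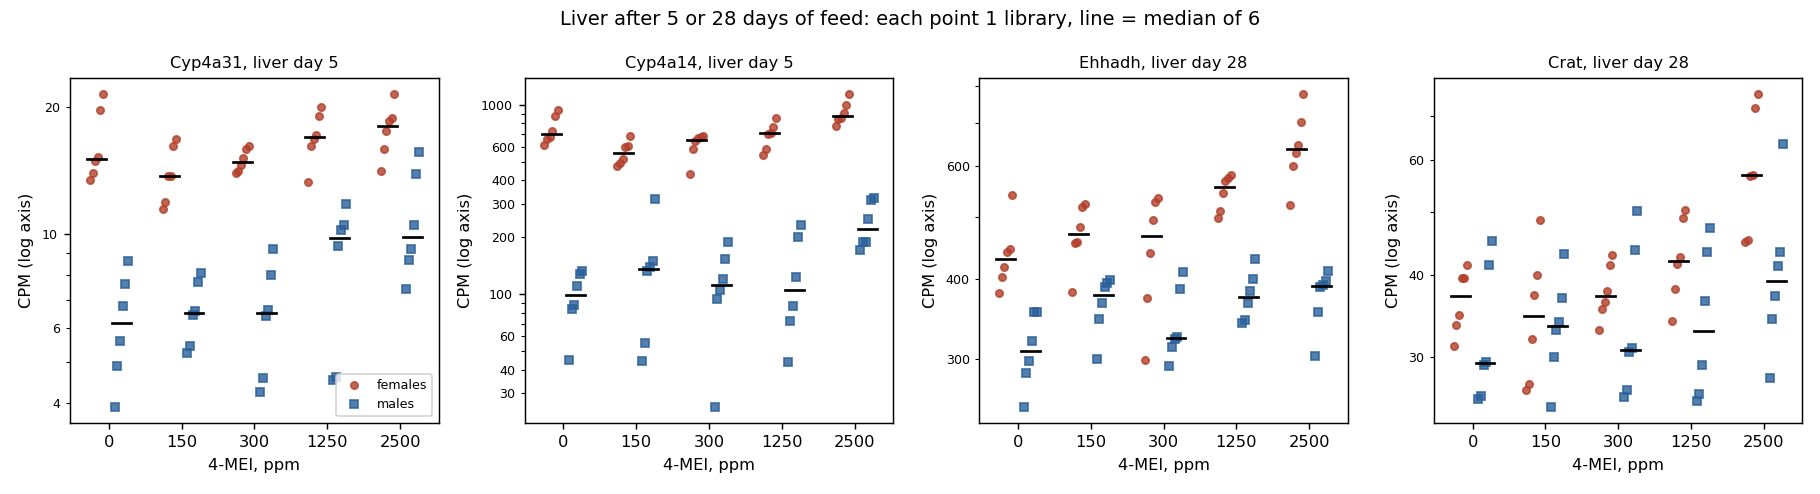
CPM on a log axis of Cyp4a31 and Cyp4a14 in liver at day 5 and of Ehhadh and Crat in liver at day 28 by dose in ppm of feed, females as circles and males as squares, each point 1 library and each line the median of 6. Cyp4a14 of the males at 2500 ppm lies between 171 and 323 CPM, above all vehicle males, and Crat of the females between 44.9 and 75.6, above all vehicle females.

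The vehicle livers of the sexes differed in a number of members. At day 28, 15 of 38 genes were higher in females (11.5% of all genes were) and 2 were lower (10.7% of all genes were). At day 5, 12 were higher (10.6%) and 1 lower (7.54%), and at day 2, 5 were higher (7.32%). Acot3 showed the widest gap. Vehicle females at day 28 held 51.3, 182 and 404 CPM of it and vehicle males 0.467, 1.41 and 4.76, a difference of 6.65 log2 (SE 0.71, adjusted p 1.47e-10). At days 5 and 2 the difference was 5.47 and 4.00. Cyp4a14 was 3.30 higher in females at day 28, with 481, 702 and 1057 CPM against 10.05, 72.1 and 172, and 2.94 higher at day 5. At day 2 its difference of 1.20 did not pass, with vehicle males at 303, 431 and 1146 CPM. The level of Cyp4a14 in the gavage vehicle males thus lay above that of the feed vehicle males, and the tables were scaled separately.

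Acot4 (2.42 at day 28), Cd36 (2.31), Vnn1 (1.81), Acot2 (1.40) and Cyp4a10 (2.55) were also higher in females, and the ranges of Cd36, 66.8 to 94.8 CPM in females and 13.01 to 25.7 in males, were far apart. Cd36, Acot2, Acot3, Acot4 and Vnn1 passed on all 3 days. Cpt2 (-0.16) and Acaa2 (-0.15), both of the mitochondrial chain, were lower in females at day 28 and Hsd17b4 (-0.21) at day 5. With the 4 vehicle males that held Xist left out, 3 members passed at day 2, Cd36, Acot4 and Acot3. In vehicle lungs no member differed between the sexes on any day (0.275% of all gene tests passed). Between 3 and 5 members, and 851 to 1874 of all genes, had an unadjusted p under 0.05, and DESeq2 called no member.

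**Figure D5:**
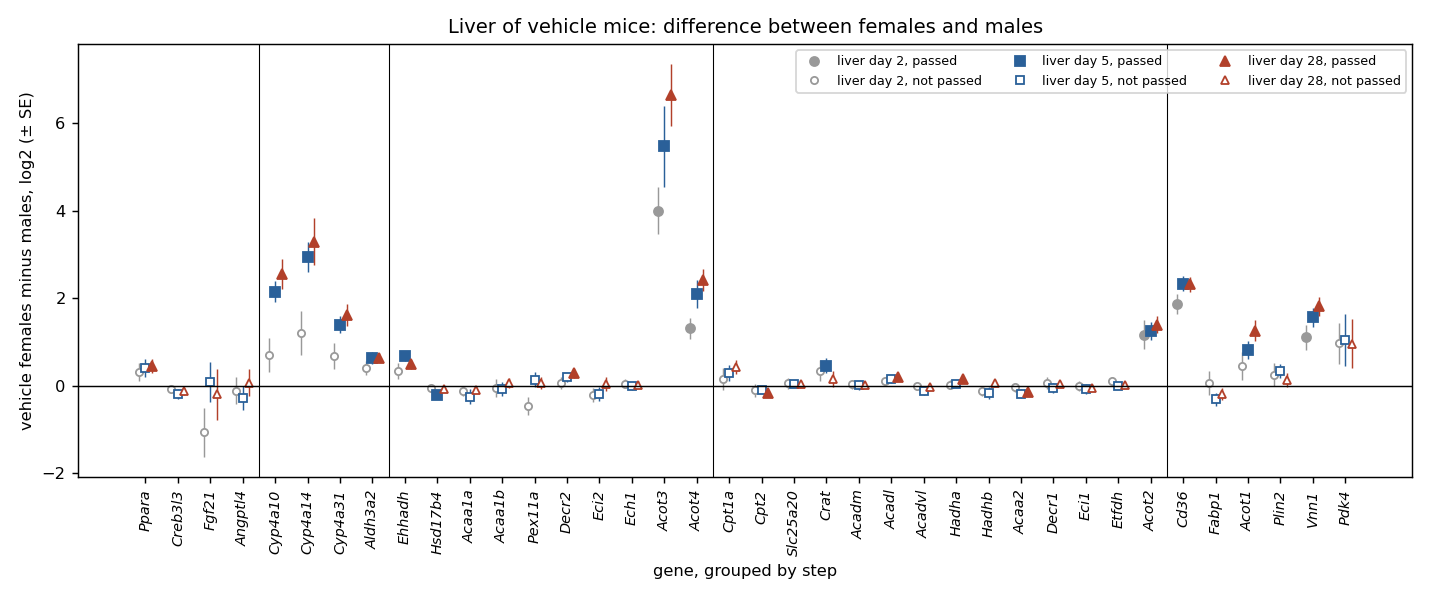
Difference between vehicle females and vehicle males in liver (log2, females minus males, bars ± SE) for each gene of the set by step, at day 2 (circles), day 5 (squares) and day 28 (triangles), filled where adjusted p is under 0.05. Acot3 stands highest on each day, at 4.00, 5.47 and 6.65, and most mitochondrial genes lie near 0.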

How the data were processed

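Messenger RNA of liver and lung was sequenced from stranded libraries, per the labels' protocols. Each deposited value is a raw count of reads for a gene symbol, made by the authors with Trimmomatic, Bowtie2, SAMtools and HTSeq against mm10, per the submitters' processing notes; versions and the strand setting are not stated in those notes. Groups were taken from the sample titles, which at day 28 disagree with the characteristics on the dose of 96 libraries and the sex of 48; of 360 value columns, 1 without a name was not used. Low-count genes were removed with filterByExpr, and TMM-scaled counts were tested with edgeR 4.0.16 (quasi-likelihood, robust, 1 mean for each of 10 groups in a table) in R 4.3.3, each dose against its vehicle and as a linear trend over dose rank, with Benjamini-Hochberg adjustment over all genes of a comparison and a threshold of 0.05. This left 12627 to 12904 genes in liver and 15240 to 15675 in lung. Standard errors (SE) were derived from the log2 fold change and the F statistic. All members past the threshold may be named, and the others by family; the members, lists and alternatives were chosen with earlier results of these data known. Some genes of the wider pathway are not reported here and were left out of its counts. Transcript lengths and gene positions are from GENCODE M21 (GRCm38). The scripts were tested on simulated data.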

Additional observations from a re-analysis of the deposited data

Results flagged for a closer look

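In 72 groups of libraries of the named genes at day 2 and in feed, the highest or lowest library stood apart from the rest by Dixon's criterion in 8. Chance alone marks about 1 in 20 groups where these are independent and normally spread. The groups here hold CPM of called genes and share animals, so the 8 cannot be weighed against that rate. In liver of males at 300 mg/kg-d, replicate 66 held 16.03 CPM of Acot2 (the next library 7.49) and 137.9 of Acot1 (64.1). In liver of females at 300 mg/kg-d, replicate 77 held 111.04 CPM of Vnn1 (68.5), 201 of Acot1 (98.9) and 33.7 of Acot2 (13.97). Among the vehicle females replicate 9 held 39.7 CPM of Cyp4a31 in liver (23.1). In lung, replicate 66 of the 300 mg/kg-d males held 67.7 CPM of Acaa1b (19.97) and replicate 64 of the 200 mg/kg-d females held 153.3 CPM of Pdk4 (54.2).

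The effect of 300 mg/kg-d in females at day 2 differed between liver and lung, liver minus lung on the log2 scale, for Pdk4 (-1.82), Pex11a (1.08), Vnn1 (1.19), Acaa1b (-1.08) and Decr2 (0.41), each by edgeR's test of the difference with adjusted p under 0.05. These were 5 of the 38 members tested, where 12.9% of all genes passed. Members below the filter in lung at day 2 are among the 38. With each animal as a block Pex11a and Acaa1b passed, and Pdk4, Vnn1 and Decr2 did not.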

How the results depend on the processing

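Of 40 calls named for single members, DESeq2 and RLE size factors kept 40. A term for an animal number's place among each 8 numbers and removal of a transcript length trend kept 39 each. A fit without the filter on low counts kept 34, and a fit of only the 2 groups compared kept 25. None of the 40 calls changed direction in the alternatives that refitted it. Members that had not passed were left out of that check. The number of members past the threshold moved as follows. With only the groups compared it was 3 in liver of 300 mg/kg-d males (6 with all groups), 0 in liver of 200 mg/kg-d females (5), 0 in lung of 300 mg/kg-d males (1), 1 in lung of 200 mg/kg-d females (4), 1 in liver of males fed 2500 ppm for 5 days (Cyp4a14 in place of Cyp4a31) and 13 in lung of 300 mg/kg-d females (7). With the length trend removed it was 10 in liver of 200 mg/kg-d females, 2 in liver of males fed 2500 ppm for 5 days (1), 4 in liver of females fed 2500 ppm for 28 days (2) and 12 in lung of 300 mg/kg-d females. With no filter it was 1 in liver of the females at day 28 and 0 in lung of 300 mg/kg-d males. DESeq2 gave 2 in liver of the males at day 5, 2 in lung of 300 mg/kg-d males and in their trend (1), 1 in the trend of lung of males at day 5 (0) and 1 in liver of 50 mg/kg-d males (0). The place term gave 2 in liver of the males at day 5 and 2 in lung of 300 mg/kg-d males. Chosen after seeing the data, the level of Arntl as a term gave 10 in liver of 300 mg/kg-d males, 6 in lung of 300 mg/kg-d males and 2 in lung of 200 mg/kg-d females, and leaving out the vehicle males with Xist gave 2 in liver of 300 mg/kg-d males and 3 in the comparison of vehicle sexes at day 2; the females that the characteristics call vehicle gave 6 in liver of females fed 2500 ppm for 28 days (2). Among the libraries left out singly, the count ran from 9 (without replicate 77) to 19 (without replicate 9) in liver of 300 mg/kg-d females, from 2 (without 66) to 5 (without 67) in liver of 300 mg/kg-d males, from 0 (without 64) to 4 (without 12) in lung of 200 mg/kg-d females and from 7 to 8 in lung of 300 mg/kg-d females. It was 8 without 64 or 9 in liver of 200 mg/kg-d females, 1 without 176 in liver of the females at day 28 and 0 without 66 in lung of 300 mg/kg-d males. Replicates 66 (liver), 77 and 9 were chosen for this after seeing the data, and other libraries were not left out. The cause of these shifts was not tested.

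The number in the title marks the same animal in liver and lung, so the comparison of tissues was also fitted with the replicate as a block, over the animals with both tissues (8 females at day 2, 4 of them vehicle). That paired fit gave 3 members with a different effect in liver and lung at 300 mg/kg-d, instead of 5: Pex11a and Acaa1b, which both fits called, and Angptl4. Groups of different doses share no animals, and their comparisons have no pairing.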

Other observations

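In lung of females at 300 mg/kg-d, genes of fat breakdown outside the set also changed. Of 18 genes of fatty acid uptake and lipid droplets, 3 rose and 1 fell by edgeR's test, where 3.64% of all genes rose and 5.09% fell: Lipe, the hormone-sensitive lipase, at 0.73 log2 (adjusted p 0.00114), Lpl, the lipoprotein lipase that Angptl4 inhibits, at 0.66 (adjusted p 0.0218) and Slc27a1, a fatty acid transporter, at 0.46 (adjusted p 0.0152) rose, and Mgll, the monoglyceride lipase, stood at -0.34 (adjusted p 0.00806). Lipe and Lpl are also genes of fat cells, and the adipocyte marker sum was higher in these lungs (67.8 to 243 CPM in vehicle, 168 to 275 at 300 mg/kg-d); 3 of 7 skeletal muscle markers also rose, highest in replicate 75. The part of both in these values was not tested. Hsdl2 of the peroxisome rose by 0.20, and Pex13, which imports peroxisomal proteins, by 0.24. None of 13 receptors and coactivators passed there at 300 mg/kg-d. The trend over dose in these females passed upward for 2 of the 13 and downward for 1. In that trend 8.09% of all genes rose and 8.98% fell.

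In liver at day 2 the corepressor Ncor1, which silences nuclear receptor targets, rose at 300 mg/kg-d in females (0.49, adjusted p 1.21e-05) and in males (0.47, adjusted p 0.000119), while Pparg fell by 0.48 (adjusted p 0.04998) in females. After feed, Abcd2, a peroxisomal importer of very long chains, rose by 0.79 (adjusted p 0.0482) and Scp2, a peroxisomal thiolase, fell by 0.33 (adjusted p 0.0211) in liver of males at day 5 and 2500 ppm. Cyp4f14, an omega-hydroxylase of another CYP4 family, fell by 0.44 (adjusted p 0.0185) in liver of females at day 28 and 2500 ppm.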
